A study of Caenorhabditis elegans with 2 samples.

Results

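Regions called around piRNA genes in a ZTF-11 chromatin immunoprecipitation experiment (ChIP-seq) were examined. Members were chosen by position alone: a region of the authors' pooled list belonged when its summit lay within 200 bp of a gene that Ensembl annotates as piRNA. This gave 907 of the 20223 regions in that list, 853 of them on chromosome IV, where 14714 of the 15363 annotated piRNA genes lie. The experiment had 1 group, with no contrast between conditions. It held 2 biological replicates of whole L2 larvae, males and females pooled and of unknown age, from strain OP236. Its genotype is unc-119(ed3) III; wgIs236, where wgIs236 is an integrated transgene that expresses ZTF-11 with a C-terminal GFP-FLAG tag. All animals came from this single line, and the labels do not give the cells in which the transgene is expressed. In whole animals, weak binding in many cells and strong binding in few cannot be told apart.

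ZTF-11 is the worm member of the MYT1 family of zinc finger proteins, which are known as repressors in developing neurons. The piRNAs of Caenorhabditis elegans, also called 21U-RNAs because they are short and usually begin with uridine, bind the Argonaute PRG-1 and silence foreign and transposon transcripts in the germ line. Each is transcribed from its own tiny gene. Most of these genes are crowded into 2 blocks of chromosome IV and carry an upstream element known as the Ruby motif, with the core CTGTTTCA, at which their transcription complex assembles.

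In the annotation every piRNA gene was 21 bases long, and 96.2% began with T. On chromosome IV, 34.6% (5092 of 14714) had CTGTTTCA on the strand of the gene, starting 30 to 60 bp upstream of the 5′ end, with a median start 46 bp upstream. On the other chromosomes 6.63% (43 of 649) had it. The core was searched as an exact match, so variants of the motif were not counted.

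3 chromosome IV windows show what such regions look like (WBcel235 genome, the assembly with ce11 coordinates; RefSeq sequence). They are printed 5′ to 3′ on the minus strand, on which all 3 of these genes lie, with the 21U sequence in capitals and, where present, the upstream CTGTTTCA in capitals. The first, chrIV:5762575-5762779, holds 21ur-12668 and the summit of the region with the highest score among members, 114 bp downstream of the 21U 5′ end. The second, chrIV:14864099-14864343, holds 21ur-1615, the gene of the highest-scoring chromosome IV member whose nearest piRNA gene lacks the core. The third, chrIV:15569151-15569266, holds 21ur-10555, nearest to a summit with 7 piRNA genes within 200 bp.
21ur-12668: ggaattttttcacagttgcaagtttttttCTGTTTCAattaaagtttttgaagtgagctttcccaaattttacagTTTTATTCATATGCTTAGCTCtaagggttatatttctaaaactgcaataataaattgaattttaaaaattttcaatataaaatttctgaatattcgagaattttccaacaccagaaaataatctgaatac
21ur-1615: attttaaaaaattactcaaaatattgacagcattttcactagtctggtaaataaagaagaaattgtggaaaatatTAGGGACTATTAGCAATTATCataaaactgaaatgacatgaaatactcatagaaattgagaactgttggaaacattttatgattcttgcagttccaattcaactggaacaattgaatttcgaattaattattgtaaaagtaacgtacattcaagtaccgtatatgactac
21ur-10555: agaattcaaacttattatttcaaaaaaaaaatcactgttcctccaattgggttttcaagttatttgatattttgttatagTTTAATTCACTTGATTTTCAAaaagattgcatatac

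Neighbouring piRNA genes often overlapped one another, and several, overlapping or not, can lie within 200 bp of a single summit. At the region of the third window, 5 of the 7 genes show such overlap. The start of 21ur-14596 is shifted by only 1 base from that of 21ur-10555, and the other 3 genes printed here overlap one another just outside the window.
21ur-14596: TTAATTCACTTGATTTTCAAA
21ur-9783: TTGCACTGTATTAATTTGTTA
21ur-3657: TAATTGCACTGTATTAATTTG
21ur-15463: TAATAATTGCACTGTATTAAT
Over the chromosome, 6201 piRNA genes (42.1%) overlapped another on the same strand. Such genes share the signal of 1 region and are not independent. Chromosome IV members had a median of 2 piRNA genes within 200 bp of the summit.

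No member was a peak of the authors' thresholded set, the regions that passed their reproducibility threshold. Of 907 members 0 overlapped such a peak, which allows a share of up to 0.331%, against 1.10% of all nuclear pooled regions and 0.923% of the other regions of chromosome IV. Seen from the peaks, 0 of the 24 thresholded peaks on chromosome IV had a summit within 200 bp of a piRNA gene, although 9 of them lay in 100 kb bins dense in piRNA genes. A count of 0 of 24 allows a share of up to 12.5%. Bases within 200 bp of a piRNA gene made up 17.5% of the chromosome. The closest of these peaks to a piRNA gene was 280 bp away, and the median distance was 7554 bp. Base composition moved with this: mean GC content in the 101 bp around the summit was 28.6% ± 7.10 at chromosome IV members (SD, n = 853), 33.9% ± 9.22 at the other regions of the chromosome (SD, n = 2925) and 48.5% ± 7.55 at its 24 thresholded peaks (SD). GC content of 40% and over was found at 8.89% of the bases near piRNA genes and at 29.7% of the rest of the chromosome. Its part in the absence of thresholded peaks was not tested.

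The signal at piRNA genes was that of the bulk of the pooled list. The score of a region is the signal value that the authors gave it against a control, and the sources used here do not give its scale. The median score of chromosome IV members was 11.6 (95% interval of the median 11.4 to 11.9, n = 853), against 11.8 (11.6 to 11.9, n = 2925) for the other regions of the chromosome. Scores of the middle 80% of members ran from 9.55 to 16.2, and those of the other regions from 9.61 to 17.3. A member scored higher than another region in 47.6% of all pairs. In this comparison the difference was larger in the upper tail than at the median. Members made up 22.6% of chromosome IV regions but 16.9% of the upper 10% by score (64 of 378, 95% Wilson interval 13.5 to 21.04) and 2.63% of the upper 1% (1 of 38, interval 0.466 to 13.5). The highest member score was 30.2, below the lowest thresholded peak of chromosome IV at 33.1, and the highest region of the chromosome scored 79.1. Intervals here and below cover counting error only, and no p-value is given because regions of 1 experiment are not replicates of a condition.

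**Figure D1:**
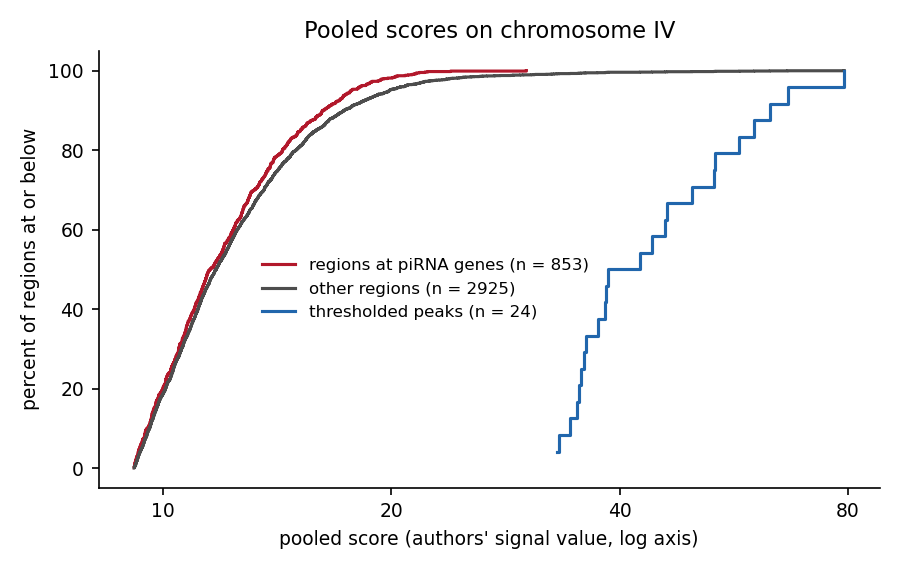
Cumulative percent of regions (vertical axis) by pooled score (horizontal log axis) for the 853 regions at piRNA genes, the 2925 other regions and the 24 thresholded peaks of chromosome IV. The first 2 curves run together through the median, at 11.6 and 11.8, the curve of piRNA genes ends at 30.2, and the thresholded peaks start at 33.1.

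In each replicate list alone the intervals of both medians overlapped. In the list of replicate 1, the rule found 1047 regions on chromosome IV, with a median score of 6.54, against 6.66 for the 4280 others. In that of replicate 2 it found 1257, with a median of 5.69, against 5.62 for the 4174 others. The sign of the small difference was thus not shared by the replicates. Pooled chromosome IV regions whose summit lay in a region of the replicate's list were also compared by their score in that list. In replicate 1 the median was 7.41 (7.19 to 7.63) for 474 members and 7.86 (7.69 to 8.01) for 1835 others. These intervals did not overlap, and the member was higher in 45.9% of pairs. In replicate 2 the medians were 6.75 for 489 members and 6.58 for 1468 others. There the intervals overlapped, and the member was higher in 49.8% of pairs. The highest score of a region by the rule on chromosome IV was 18.3 in replicate 1 and 15.8 in replicate 2. Over all nuclear chromosomes it was 18.3 in replicate 1, where the highest nuclear region reached 66.4. In replicate 2 it was 20.3, where the highest nuclear region reached 62.6. Of the 210 highest nuclear regions, 0 in replicate 1 and 1 in replicate 2 lay within 200 bp of a piRNA gene. That 1 region was not on chromosome IV.

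The share of members found in both replicates lay close to that of other regions of the chromosome, while the single replicates went opposite ways. A pooled region counted as recovered when its summit lay in a region of the replicate's list. Of 853 chromosome IV members 209 (24.5%, Wilson interval 21.7 to 27.5) were recovered in both, against 24.2% (708 of 2925) of other regions of the chromosome and 25.3% of all nuclear regions. The difference was 0.30 percentage points (95% Newcombe interval -2.89 to 3.66). Replicate 1 held 55.6% of members and 62.7% of other regions, a difference of -7.17 points (-10.9 to -3.42). Replicate 2 held 57.3% of members and 50.2% of other regions, a difference of 7.14 points (3.34 to 10.9). The opposite signs cancelled in the share found in both. Within the piRNA-dense bins alone, the differences were -7.92 points in replicate 1 and 7.98 points in replicate 2. With the other regions weighted to the GC content of members, they were -4.83 and 6.24 points. The lists also differed in composition, with a mean GC content at chromosome IV summits of 33.6% in replicate 1 and 32.3% in replicate 2, whose part in this was not tested beyond that weighting.

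**Figure D2:**
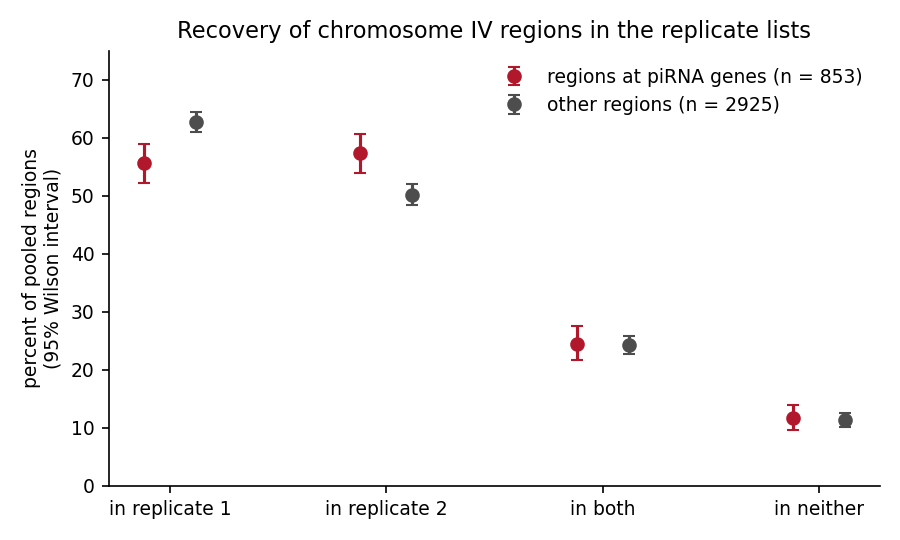
Percent of pooled chromosome IV regions (vertical axis, with 95% Wilson intervals) whose summit lay in a region of replicate 1, of replicate 2, of both or of neither, for regions at piRNA genes and other regions. Regions at piRNA genes are lower in replicate 1 (55.6% against 62.7%), higher in replicate 2 (57.3% against 50.2%) and level in both (24.5% against 24.2%).

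Members recovered in both replicates showed no common order of height in these 2 lists. Across the 209 such members Spearman's rho between the replicate scores was -0.04 and Pearson's r was -0.05. Across the 708 other regions recovered in both, rho was 0.19 and r was 0.57. These regions share 2 libraries and their control, and the other regions include the thresholded peaks, which members do not. Only regions present in the pooled list and both replicate lists were compared, so those too low for any of these lists are left out. The effect of this selection on the correlations was not tested. Among regions in the upper 10% by pooled score, 68.8% of members (44 of 64, Wilson interval 56.6 to 78.8) and 68.8% of other regions (216 of 314, 63.5 to 73.7) were recovered in both.

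Regions were more frequent near piRNA genes than elsewhere on the chromosome, though not higher. The pooled list had 279 regions per Mb within 200 bp of a piRNA gene (853 in 3.06 Mb, Poisson interval 261 to 298) and 203 per Mb in the rest of chromosome IV (2925 in 14.4 Mb, 195 to 210), a ratio of 1.38 (1.27 to 1.49). The ratio was 1.16 (1.08 to 1.24) in the list of replicate 1, with 343 against 296 per Mb, and 1.42 (1.33 to 1.52) in that of replicate 2, with 411 against 289. Both ratios were above 1, and that of replicate 2 was the larger. The difference between 2 replicates cannot be tested.

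Sequence composition moved with this density. DNA within 200 bp of piRNA genes was 29.7% G and C, against 35.6% for the rest of the chromosome, and in the rest of the chromosome all 3 lists had their highest density under 25% GC and their lowest at 40% and over. Near piRNA genes the pooled density was 367 per Mb under 25%, 205 from 30 to 35% and 261 at 40% and over. At a local GC content of 25 to 30% the pooled list had 271 regions per Mb near piRNA genes and 251 elsewhere on the chromosome, a ratio of 1.08 (0.93 to 1.25). In this class it was 1.03 (0.90 to 1.17) in replicate 1 and 1.28 (1.14 to 1.44) in replicate 2. Under 25% the pooled ratio was 1.12 (0.97 to 1.29). From 30 to 35% it was 1.13 (0.92 to 1.37). From 35 to 40% it was 1.37 (1.06 to 1.75), and at 40% and over it was 1.56 (1.20 to 1.99), where 71 members lay. In that last class it was 1.47 (1.18 to 1.80) in replicate 1 and 1.04 (0.795 to 1.35) in replicate 2. From 35 to 40% it was 1.08 (0.87 to 1.34) in replicate 1 and 1.32 (1.07 to 1.61) in replicate 2. With the rest of the chromosome weighted to the GC content near piRNA genes, the ratio was 1.16 in the pooled list, 1.05 in replicate 1 and 1.19 in replicate 2. Outside coding exons, without that weighting, it was 1.24 (1.15 to 1.35) in the pooled list. There it was 1.07 (0.999 to 1.15) in replicate 1 and 1.33 (1.24 to 1.42) in replicate 2. The sources used here do not say how reads that align to several places were treated.

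**Figure D3:**
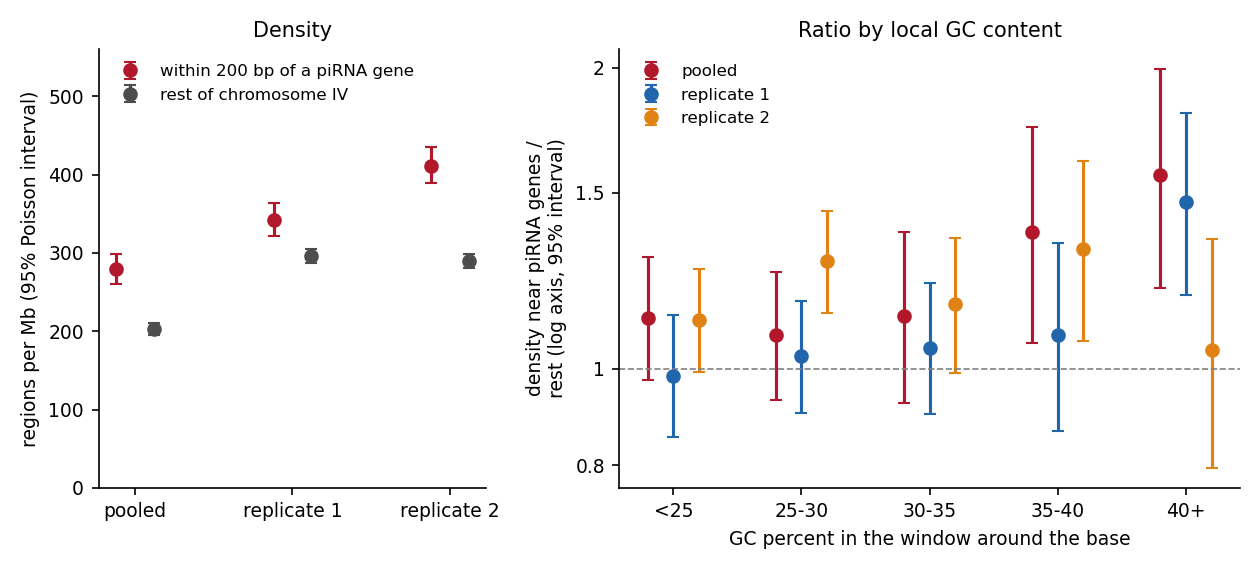
Left, regions per Mb on chromosome IV (95% Poisson intervals) within 200 bp of a piRNA gene and in the rest, for the pooled list and each replicate. Right, the ratio of these densities (log axis, 95% intervals) in 5 classes of local GC content, with a dashed line at equality. The pooled density is 279 against 203 per Mb, and the pooled ratio at 25 to 30% GC is 1.08.

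Bins dense in piRNA genes overlapped the others in their number of regions. Of 100 kb bins, 54 held at least 50 piRNA genes, 17 of them between positions 4800001 and 6600000 and 37 between 13600001 and 17300000. These dense bins had a median of 24 pooled regions (14 to 36), against 21 (8 to 40) in 120 other full bins. In the left block 195 members had a median score of 11.8, equal to the 11.8 of 227 other regions there. In the right block 617 members had a median of 11.6 (11.3 to 11.9), against 12.3 (11.8 to 12.7) for 253 other regions. Members with a single piRNA gene within 200 bp scored 11.5 in the median (n = 333), those with 2 scored 11.96 (n = 252), those with 3 scored 11.4 (n = 154), those with 4 scored 11.3 (n = 69) and those with 5 or more scored 11.3 (n = 45), with overlapping intervals. The shares recovered in both replicates were, in the same order of groups, 23.4%, 27.4%, 23.4%, 29.0% and 13.3% (6 of 45), with no steady trend.

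**Figure D4:**
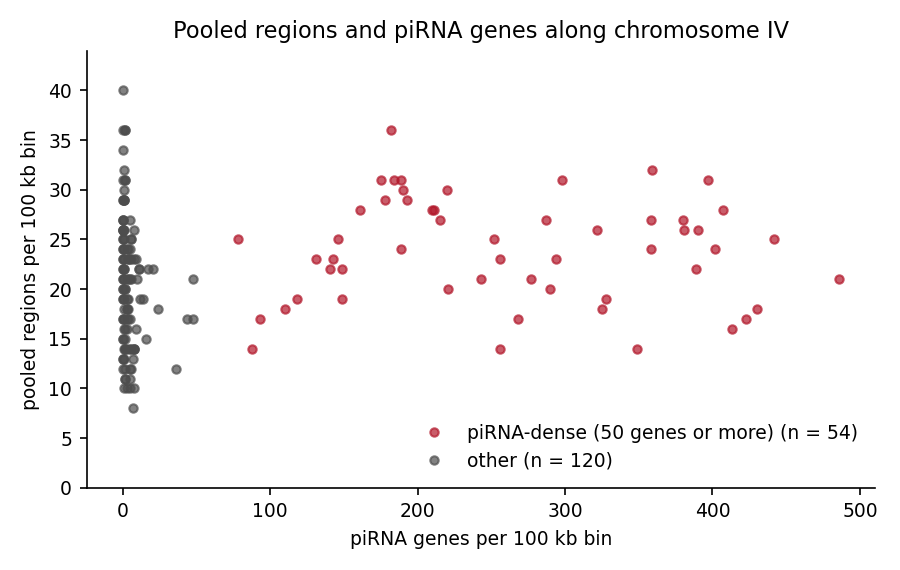
Pooled regions per 100 kb bin of chromosome IV (vertical axis) against piRNA genes per bin (horizontal axis). Each point is a bin. The 54 dense bins, with 50 piRNA genes or more, span 14 to 36 regions, within the 8 to 40 of the other full bins.

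Summits lay on both sides of the start of the 21U-RNA. Of all 907 members 441 (48.6%) had the summit upstream of the 5′ end of the nearest piRNA gene and 466 at or downstream of it. The median distance to the gene was 63 bp, and in 67 members the summit lay inside the 21 bases. Members were chosen by this distance, at most 200 bp on either side of the gene. The short distances and the near-even split are therefore partly set by the rule. Over all 14714 chromosome IV genes, summits of the pooled list numbered 14.6 ± 1.23 per 50 bp and 1000 genes within 200 bp of the 5′ end (SD over 8 steps of 50 bp) and 14.3 ± 1.11 from there to 1000 bp away (SD over 32 steps). The values were 17.2 ± 1.45 and 17.3 ± 1.51 in replicate 1, and 21.3 ± 1.11 and 20.3 ± 1.79 in replicate 2. Since genes overlap or lie close together, 1 summit can count several times. Neighbouring steps are therefore not independent, and the differences were not tested. Most of these genes lie in the dense bins, where 2.84 Mb was within 200 bp of a piRNA gene and 2.56 Mb was not. Steps beyond 200 bp of 1 gene thus often lie near another gene. Similar means near and far cannot show whether summits gather at piRNA genes.

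**Figure D5:**
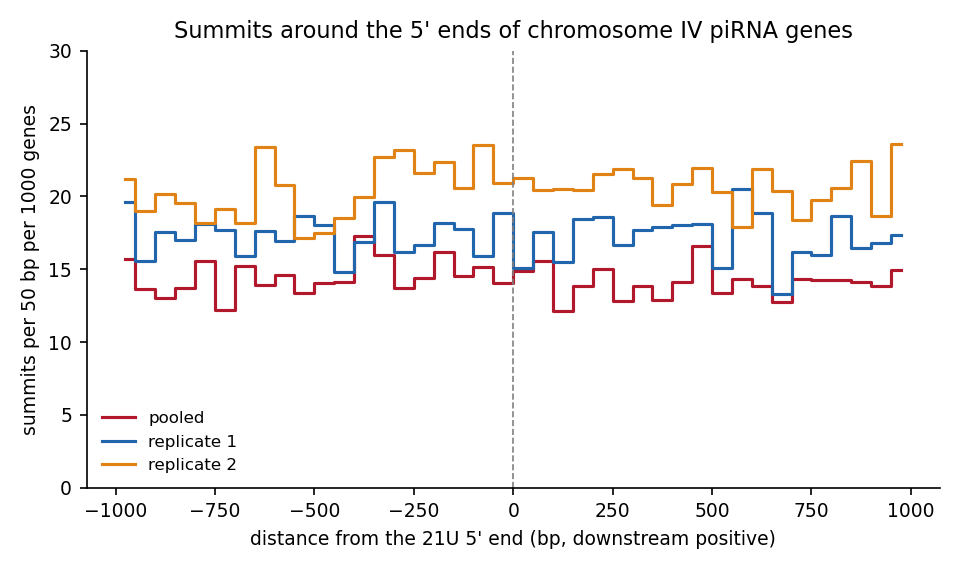
Summits per 50 bp and 1000 piRNA genes (vertical axis) by distance from the 21U 5′ end on the strand of the gene (horizontal axis, downstream positive) for the pooled list and both replicates on chromosome IV. The pooled line has means of 14.6 within 200 bp of the 5′ end and 14.3 beyond, where many steps lie near other piRNA genes.

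The upstream core had similar shares at piRNA genes with and without a region. Within 200 bp of a pooled summit lay 1769 of the 14714 chromosome IV piRNA genes (12.02%, Wilson interval 11.5 to 12.6), of which 586 (33.1%) had CTGTTTCA upstream, against 34.8% (4506 of 12945) of the genes without a region. The difference was -1.68 points (Newcombe interval -3.99 to 0.69). It was 0.045 points (-2.13 to 2.27) in replicate 1 and -0.63 points (-2.63 to 1.41) in replicate 2. The intervals over genes treat each gene as independent, although several genes can share 1 region, so they are too narrow. The 296 chromosome IV members whose nearest gene had the core scored 11.9 in the median (11.3 to 12.2), and the 557 whose nearest gene lacked it scored 11.4 (11.3 to 11.8). On either strand, 45.8% of the 376 bp member regions held the core, against 8.33% of other regions in dense bins and 3.49% of all other chromosome IV regions, as follows from choosing them by piRNA genes. AAAGTT, the core known for MYT1-family proteins, lay within 50 bp of the summit on either strand in 29.1% of chromosome IV members and 21.2% of other regions of the chromosome, which had a higher GC content, whose part was not tested.

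Most members lay outside protein-coding genes. On chromosome IV 506 of 853 summits (59.3%) were between protein-coding genes, against 38.5% of other regions, 278 (32.6%) in introns, against 41.0%, and 55 (6.45%) in coding exons, against 14.7%. Members were chosen by nearness to piRNA genes, so these shares, and that of promoter windows below, depend on where piRNA genes lie. Of bases within 200 bp of a piRNA gene, 2.77 of 3.06 Mb lay outside coding exons. Elsewhere on the chromosome it was 10.8 of 14.4 Mb. Between genes, members had a median score of 11.5 (11.26 to 11.85) and other regions 11.999 (11.79 to 12.2). In introns the medians were 11.9 and 11.7. In both places the intervals overlapped. The promoter window of a protein-coding gene, from 1500 bp upstream to 500 bp downstream of its 5′ end, held 17.0% of chromosome IV member summits and 34.3% of the other regions'. A tRNA, snoRNA, snRNA or rRNA gene lay within 200 bp of 4 members on chromosome IV (0.469%) and of 37 other regions there (1.26%).

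The single highest member, chrIV:5762402-5762777 beside 21ur-12668 (WBGene00174293, 5762684 to 5762704, minus strand), ranked 231 of 20201 nuclear regions. It scored 30.2 in the pooled list, 18.3 in replicate 1 and 10.2 in replicate 2, and its summit lay 4728 bp from nhr-46, a nuclear hormone receptor gene. This is the first window printed above, with CTGTTTCA starting 46 bp upstream of the 21U-RNA. A second member, chrIV:5752011-5752386 by 21ur-6607, lay in an intron of nhr-46 and scored 22.2, with 12.1 in replicate 1 and 6.77 in replicate 2. Each list was scored on its own, so scores are compared within a list and not between replicates.

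The region chrIV:13895763-13896138 by 21ur-2666 scored 24.0, with 14.3 in replicate 1 and 7.10 in replicate 2, and also had the core 46 bp upstream of its 21U-RNA. The region chrIV:14863926-14864301, the second window above, scored 22.3, with 11.7 in replicate 1 and 7.12 in replicate 2. It lay in an intron of Y57G11C.38, within 200 bp of smy-11, a gene for a SmY RNA, a class of small RNA that takes part in trans-splicing, so its place is shared with another small RNA gene.

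The other members of highest score on chromosome IV lay in the right block. The region by 21ur-3324, with 4 piRNA genes within 200 bp, scored 21.8, with 9.999 in replicate 1 and 10.7 in replicate 2. That by 21ur-4385, whose summit lay 71 bp from Y105C5A.15, scored 21.6, with 9.07 and 10.3 in replicates 1 and 2. That by 21ur-5829, whose summit fell inside the 21U gene, scored 21.6, with 9.78 and 9.20. The region by 21ur-8565 scored 21.4 but was absent from replicate 1 and scored 4.08 in replicate 2.

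Of the members with most piRNA genes, 2 had 7 and 8 had 6. Those with 7 were each present in 1 replicate. Of those with 6, 1 was found in both replicates, 4 in replicate 1 alone, 1 in replicate 2 alone and 2 in neither. The region by 21ur-10555, the third window above, with 7 genes, scored 15.7 and was found in replicate 2 alone, at 8.82. The region by 21ur-14229, also with 7, scored 11.3 and was found in replicate 1 alone, at 7.98. The regions by 21ur-1110, within an intron of egl-23, by 21ur-11621 and by 21ur-12239, the 3 of highest score with 6 genes, scored 16.6, 14.02 and 14.01 and were found in replicate 1 alone. The highest member found in neither replicate, by 21ur-8401, scored 17.2 in the pooled list. Its summit lay 6 bp from the gene.

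Off chromosome IV, piRNA genes were sparse. A region lay within 200 bp of 52 of these 649 genes (8.01%, Wilson interval 6.16 to 10.4). On chromosome IV the share was 7.80% (46 of 590) outside the dense bins and 12.2% (1723 of 14124) in them. The gap was narrower in each replicate list. Outside and in the dense bins the shares were 12.2% and 14.2% in replicate 1, and 16.3% and 17.5% in replicate 2. The 54 members off chromosome IV made up 8 on chromosome I, 8 on II, 7 on III, 19 on V and 12 on X. The density was 202 per Mb near piRNA genes of these chromosomes (152 to 263) and 198 per Mb in the rest of them, a ratio of 1.02 (0.76 to 1.33). The median score of these members was 10.9 (10.4 to 11.7), against 11.7 for 16369 other regions, and 13 of 54 (24.1%) were in both replicates. The 3 highest lay near protein-coding genes. The region on chromosome I by 21ur-12279 scored 28.2, with 12.9 in replicate 1 and 13.2 in replicate 2, 4 bp from atp-1, a mitochondrial ATP synthase subunit gene, at 61.4% GC. That on II by 21ur-12807 scored 22.2 and was found in replicate 1 alone, at 18.1, 366 bp from wee-1.3, at 51.5% GC. That on II by 21ur-11529, 97 bp from smc-5, scored 20.6, with 6.62 in replicate 1 and 10.4 in replicate 2, at 37.6% GC.

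At 199 and 200 bp, just inside the limit, lay 7 regions with a median score of 12.5 (11.4 to 15.3), and at 201 and 202 bp, just outside it, lay 3 with a median of 12.5 (12.1 to 14.2), where the ranges are lowest to highest. Inside, the regions by 21ur-7619 (200 bp), 21ur-8190 (200 bp) and 21ur-9932 (199 bp) scored 15.3, 15.2 and 13.3. Outside, those by 21ur-623 (201 bp), 21ur-3270 (202 bp) and 21ur-15019 (202 bp) scored 14.2, 12.5 and 12.1.

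Protein-coding genes of the piRNA pathway were near the background of all genes. Of 43 names in the list 40 matched a protein-coding gene. Of these, 14 (35%) had a pooled region in the promoter window, against 35.7% of all 19973 nuclear protein-coding genes, with a median top score of 11.6 against 12.4, and 0 had a thresholded peak, against 0.941% (188) of all genes. A count of 0 of 40 allows a share of up to 7.5%. Among 8 factors of piRNA transcription, only fkh-4, a forkhead gene, had a region, with a score of 11.9 and 9.80 in replicate 1 alone. There was none at prde-1, snpc-4, tofu-4 or tofu-5, whose products assemble on piRNA genes. Among 11 genes of precursor binding and processing, slfl-4 had 13.96, tost-1 11.5 and tofu-2 9.55. The slfl-4 region, chrIV:5274211-5274586, is itself a member, with its summit inside 21ur-4486, and no other pathway gene had a member in its promoter window. Among 21 effectors and amplification factors 10 had a region. The highest were pid-2, with 14.1, mut-2, with 13.1, and ekl-1, with 12.6, and the piRNA Argonaute gene prg-1 had none.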

How the data were processed

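ChIP-seq of tagged ZTF-11 was done in whole L2 larvae, in 2 biological replicates numbered in the labels. Per the labels and the notes deposited beside the lists, the authors called regions, background included, from each replicate's alignments and from the pooled ones against a control, and derived the thresholded set from these lists by the irreproducible discovery rate. The sources used here do not give the aligner, caller, versions or threshold. The deposited score is the authors' signal value. The deposited −log10 of the q value and the p-value column were not used. The deposited summit offset, another column, placed the summits. The ce11 lists held 30000 regions per replicate, 20223 pooled (22 of them mitochondrial, left out) and 210 thresholded. Mapped reads, and so depth, are unknown. The ce10 lists were not used.

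Genes came from Ensembl release 115 and sequence from RefSeq, both WBcel235, and no region passed a chromosome end. Local GC content was taken over 101 bp. Shares have 95% Wilson intervals, differences of shares Newcombe intervals, medians order-statistic intervals and densities exact Poisson intervals. There were no groups to compare and no tests. Functions were tested on simulated data. Software was scipy 1.17.1, pandas 2.3.3, numpy 2.4.6 and matplotlib 3.10.9 under Python 3.11.15. Members and lists were chosen with earlier results of these data known. Regions named are the 10 of highest score, the 5 with most piRNA genes, the 3 highest off chromosome IV, 3 on each side of the limit and the highest found in neither replicate. Alternatives varied distance, replicate, overlap, comparison regions and motif.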

Additional observations from a re-analysis of the deposited data

How the results depend on the processing

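With the distance set to 50 bp there were 374 members. In 36 of 51 alternatives the value stayed within its interval and the spread between replicates, or, for counts, within 1.5 times. The difference in recovery ranged from -7.17 points without replicate 2 to 7.14 without replicate 1. The share of pairs with the member higher was 47.9% without replicate 2 and 50.7% without replicate 1, which moved it across equality, and between 45.7% and 47.8% in the other settings, against the 47.6% reported. The density ratio was 1.16 without replicate 2 and 1.42 without replicate 1, 1.52 against the rest of dense bins, 1.24 outside coding exons and 1.16 with GC weighting, and stayed above 1 in each. The share of chromosome IV piRNA genes with a region was 3.55%, 6.52% and 27.3% at 50, 100 and 500 bp, as a larger distance reaches more regions. It was 14.2% without replicate 2 and 17.5% without replicate 1. Each replicate list held 30000 regions, against 20223 in the pooled list, and the part of list length was not tested. At 500 bp 4 regions overlapped thresholded peaks, and of the 210 highest regions 0 were at piRNA genes without replicate 2 and 1 without replicate 1. The GC weightings were chosen after seeing the data. No paired analysis was possible because there is 1 group. Without read counts, weak binding below the list's lower score limit is not detectable.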
